A study of Mus musculus with 18 samples.

Results

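Lymphoma tissue and lymph node of mice lacking Beclin 2 were compared by RNA sequencing, with 2 libraries of each tissue. Both groups were labelled Beclin 2 KO on strain C57BL/6 and unstimulated, so the comparison sets tumour against lymph node within 1 genotype. The tumour group was labelled lymphoma tissue and its reference lymph nodes. Their RNA was taken directly from homogenised tissue, and polyadenylated RNA was selected with oligo(dT) beads. The sources used here give neither the age of these mice, nor the knockout allele, nor the site of the nodes, nor whether a library came from 1 animal. Where the 2 libraries of a group are not from separate animals, p-values measure a spread that may be technical. The series holds 18 samples in 9 groups. Wild-type lymph node, splenic B cells and splenic T cells of both genotypes are used below for side-by-side values.

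The genes described are all 418 rows of the authors' deposited table of tumour against knockout node, out of 23565 genes tested and 2202 genes listed over the 5 deposited tables. A gene is in that table where the authors' adjusted p was under 0.05, and each tissue has 1 value per gene there, a mean of normalised reads. Called genes were therefore 1.77% of those tested. Of the 418, 165 were higher in tumour (0.700% of the genes tested) and 253 were lower (1.07%). All of these genes were selected for their difference, so the count of a gene group below is a description and not a test of that group.

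Beclin 2 is a mammalian relative of Beclin 1, a subunit of the lipid kinase complex that starts autophagosomes, and acts both in autophagy and in the lysosomal turnover of some receptors. A lymph node is a meeting place of lymphocytes, built on fibroblastic and vascular cells, with macrophages lining its sinuses and dendritic cells that arrive through the lymph. B cells activated there can become plasma cells, which fill with rough endoplasmic reticulum and secrete antibody. In a lymphoma, growing lymphocytes replace or distort this layout.

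Neither Becn2 nor Becn1 was among the 418 genes, so the table gives no level of the targeted transcript and does not check the genotype labels. None of 41 autophagy genes was listed, beside 1.77% of all genes tested. Here and below, a list without a listed gene is not shown to be unchanged. Genes that the authors' DESeq test did not call have no values in the table, so no count at an unadjusted p can be given for lists without a listed gene. The B cell markers Ms4a1 and Cd79a and the T cell markers Cd3e, Cd4 and Cd8a were not listed either. A table of called genes gives no level for them, so their presence in tumour and node could not be checked here. The means were deposited with enough digits to recover the whole reads of each library for all 418 genes in both groups. The libraries are called A and B within a group, A being the one with the larger size factor, and the letters are no replicate numbers. Size factors ran from 0.858 to 1.12 over the 4 libraries, and total depth per library is unknown because only called genes are listed.

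In each of the 418 genes both tumour libraries lay on the same side of both node libraries. Since these genes were selected for that difference, and the same share over all genes tested cannot be given, this is a description only. Falls outnumbered rises, their median sizes were close, and the largest ratios were more often rises. The median log2 ratio of tumour over knockout node was 1.34 among the genes that were higher and -1.42 among those that were lower, leaving out 15 genes with a group at 0 reads. In tumour 116 genes were over 2-fold higher and 201 were over 2-fold lower. Among the genes with a finite ratio, 21 were over 32-fold higher and 4 were over 32-fold lower. Over all 403 genes with a finite ratio the median was -0.99, a mix of both directions in which falls were more numerous. Gene groups below whose members all went 1 way are to be set beside 1.34 or -1.42 instead.

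**Figure D1:**
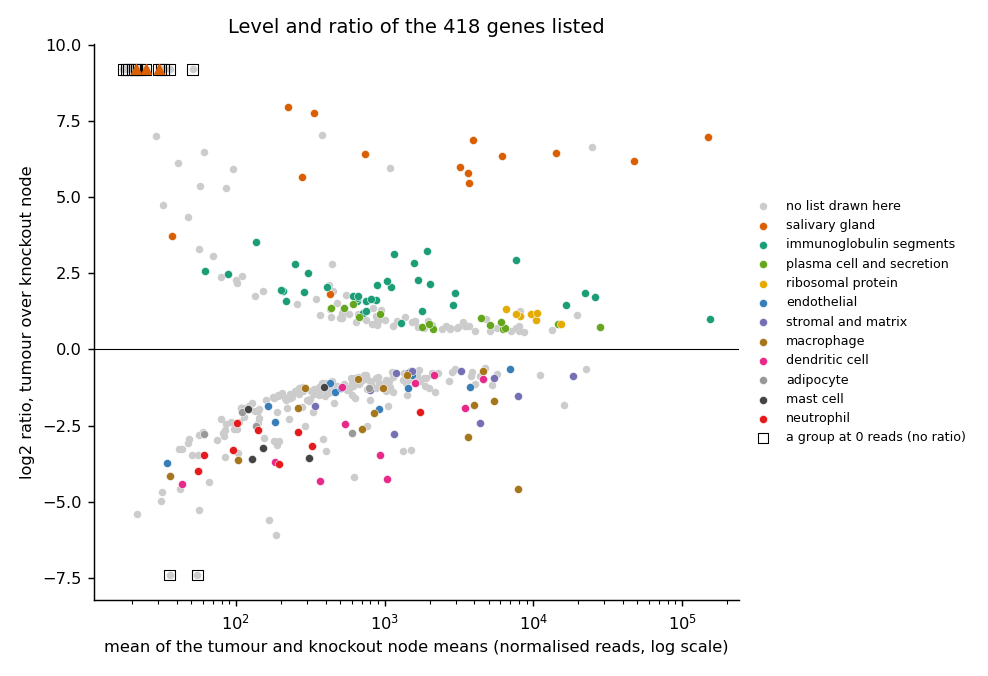
Log2 ratio of tumour over knockout node (vertical) against the mean of the tumour and knockout node means in normalised reads (horizontal, log scale), 1 point per gene for the 418 genes listed, coloured by gene list. Boxed points at the upper and lower edges are the 13 genes with the knockout node at 0 reads and the 2 with the tumour at 0 reads, which have no ratio; salivary gland genes occupy the upper part.

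The tumour libraries held salivary gland transcripts, and the 4 libraries differed widely in them. Of 70 genes on a list of salivary gland secretory products, 17 were listed and all 17 were higher in tumour, with a median log2 ratio of 6.26 over the 14 with a finite ratio. Their normalised reads summed to 267406 and 656868 in tumour libraries A and B, against 8831 and 779.4 in knockout node libraries A and B. Tumour library B thus held more than tumour library A, and node library A more than node library B. All 4 defining markers of the gland (Bpifa2, Car6, Prb1, Lpo) were among the genes that were higher. Some lymph nodes of the neck lie against the salivary glands, but the labels name no site. The part of these transcripts in the other results was not tested.

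Bpifa2, an abundant secreted protein of mouse saliva (ENSMUSG00000042459, chromosome 2, 154008265 to 154016079, GRCm38), had 159028 and 433638 normalised reads in tumour libraries A and B, against 4482 and 228 in node libraries A and B. The tumour mean was 126-fold the node mean (log2 ratio 6.98, adjusted p = 0.0124 in the authors' deposited table), with log2 ratios of 10.34 without node library A, 6.05 without node library B and 6.08 without tumour library B. Node library A alone thus held most of the node's reads of this gene. Amy1, salivary amylase, had 61456 and 125209 normalised reads in tumour A and B, against 2417 and 168 in node A and B, a log2 ratio of 6.17 that was 9.12 without node library A, 5.27 without node library B and 5.57 without tumour library B. Car6, the secreted carbonic anhydrase of saliva, had 9486 and 14601 in tumour, against 281 and 15.1 in the node, a log2 ratio of 6.35 that was 9.64 without node A and 5.42 without node B. Both genes repeated the order of libraries seen in Bpifa2. Dcpp1, of a salivary family of demilune cell proteins, had 5323 and 10290 in tumour, against 133 and 1.17 in the node, a log2 ratio of 6.86 that was 12.71 without node A and 5.88 without node B. Its transcript is 92.4% identical to that of Dcpp2 and 92.3% to that of Dcpp3, so reads may have been shared among these copies. Prb1, a proline-rich salivary protein, had 327 and 571 in tumour, against 3.57 and 0 in the node (log2 ratio 7.98, 6.98 without node B, no ratio without node A).

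Not all of the salivary list shared this order of libraries. The secretoglobin genes Scgb1b27 and Scgb2b27, neighbours on chromosome 7, were higher in tumour library A than in B. Scgb1b27 had 748 and 594 normalised reads in tumour A and B, against 6.24 and 0 in node A and B (log2 ratio 7.75, 6.75 without node B). Its adjusted p of 1.53e-43 was the smallest of the list in the authors' deposited table. Lpo, the lactoperoxidase of saliva and milk, kept the order but was less uneven in the node. It had 911 and 2008 in tumour against 21.4 and 12.8 in the node (log2 ratio 6.41, 5.73 without tumour B). Bhlha15, also called Mist1, a transcription factor of secretory cells in salivary acini and also in plasma cells, had a far smaller ratio, with 578 and 765 in tumour against 155 and 228 in the node (log2 ratio 1.81). Other genes among the 15 largest rises are not on the salivary list and moved across the libraries in the same way. Chia1, the acidic mammalian chitinase, had 30231 and 67942 normalised reads in tumour A and B, against 958 and 23.3 in node A and B (log2 ratio 6.64, with 11.04 without node A, 5.68 without node B and 5.95 without tumour B). Mup5, of the major urinary proteins, a family of close copies, had 587 and 927 in tumour, against 11.6 and 0 in the node (log2 ratio 7.03, 6.03 without node B). Ccl28, a chemokine of mucosal and glandular epithelium, had 73 and 173 reads in tumour against 3 and 0 in the node, a log2 ratio of 6.49 with a 95% counting interval of 4.73 to 8.59, and 5.49 without node B or 5.70 without tumour B. Agt, angiotensinogen, had 46 and 72 reads in tumour against 1 and 0 in the node (log2 ratio 7.01, counting interval 4.32 to 12.14, 6.01 without node B). These intervals cover counting error only.

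**Figure D2:**
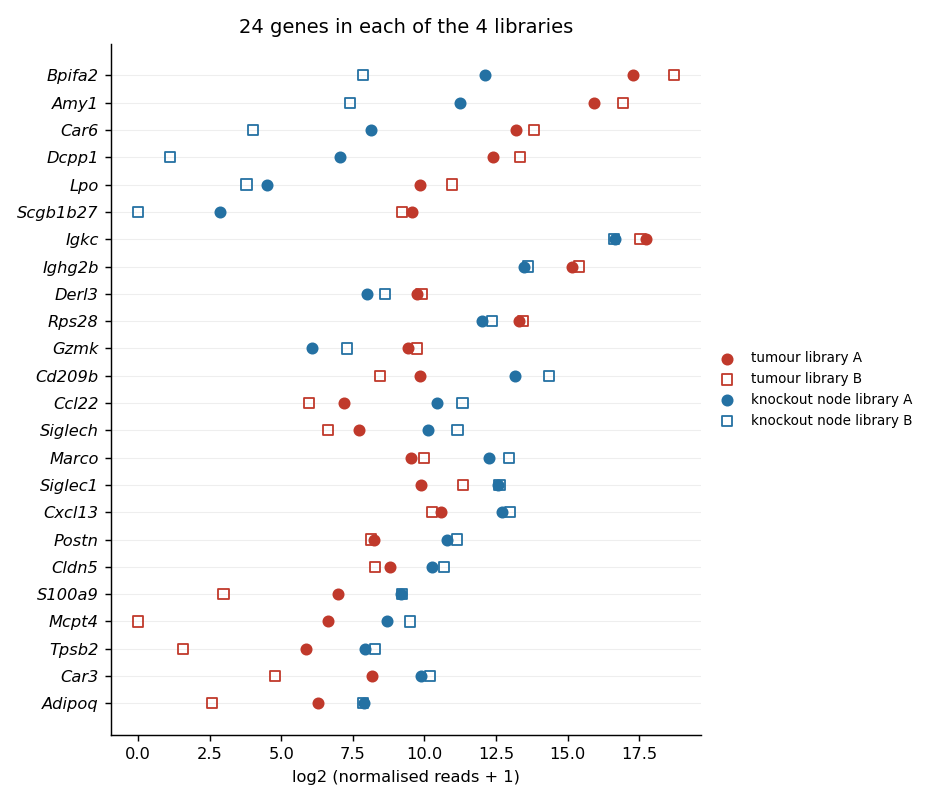
Level of 24 genes (rows) in each of the 4 libraries, as log2 of normalised reads with 1 added; red marks are tumour libraries and blue marks knockout node libraries, circles library A and squares library B. Salivary genes at the top are higher in both tumour libraries, and most of them, though not Lpo, spread widely between the node libraries. Mcpt4, Tpsb2, Car3 and Adipoq at the bottom spread widely between the tumour libraries instead.

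Antibody transcripts were the most numerous group of rises. A total of 36 immunoglobulin segments were listed, all higher in tumour, of which 24 were kappa light chain variable segments, 8 heavy chain variable segments and 4 constant regions. The 24 kappa segments, of 160 annotated, lay on chromosome 6 between 67609713 and 70672377 (GRCm38) and had log2 ratios from 0.88 to 3.23 with a median of 1.95. The 8 heavy chain segments, of 185, had a median of 1.94. A variable segment encodes the antigen-binding end of 1 antibody chain and is joined to a constant region that fixes the class of the antibody. No T cell receptor segment was listed.

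Igkc, the kappa constant region (ENSMUSG00000076609, chromosome 6, 70726435 to 70726966), had 217902 and 191345 normalised reads in tumour libraries A and B, against 102910 and 99919 in node libraries A and B. The libraries of each group lay close together, and the tumour mean was 2.02-fold the node mean (log2 ratio 1.01, adjusted p = 1.13e-07 in the authors' deposited table). Ighg2b, the constant region of IgG2b, had 36123 and 42998 in tumour, against 11483 and 12642 in the node (log2 ratio 1.71, adjusted p = 4.58e-14 in the authors' deposited table). Ighg2c, of the IgG2c class, had 29151 and 40750 in tumour, against 10644 and 8667 in the node (log2 ratio 1.86). Ighg3, of IgG3, had 26685 and 21980 in tumour, against 4773 and 13057 in the node (log2 ratio 1.45, 2.35 without node library B). All listed heavy chain constant regions were thus of IgG classes, and the IgM, IgD, IgA and IgE constant regions were not listed. Among kappa segments Igkv5-43 had the smallest adjusted p, 4.38e-21 in the authors' deposited table, with 3065 and 3547 in tumour against 871 and 616 in the node (log2 ratio 2.15). Igkv16-104 had 2617 and 2904 in tumour, against 279 and 849 in the node (log2 ratio 2.29, 1.70 without node A and 3.31 without node B). The largest heavy chain rise was Ighv5-9, with 191 and 314 in tumour against 15.2 and 29.1 in the node (log2 ratio 3.51). Many segments, not 1, were higher in both tumour libraries. Most kappa segments have close copies: the annotated transcript nearest in sequence was 79.7% to 98.7% identical, over 95% for 15 of the 24, so reads may have been shared between segments.

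Genes of the secretory machinery of plasma cells rose with the antibody chains, by smaller amounts. Of 43 genes on a list of plasma cell and antibody secretion genes, 15 were listed and all 15 were higher in tumour, with log2 ratios from 0.66 to 1.48 and a median of 0.83. Among regulators, Xbp1, the transcription factor of the unfolded protein response that plasma cells need, had 6079 and 6913 normalised reads in tumour A and B, against 3525 and 3982 in node A and B (log2 ratio 0.79). Prdm1, which encodes Blimp-1, the repressor that fixes plasma cell fate, had 579 and 666 in tumour, against 311 and 172 in the node (log2 ratio 1.36). Of surface proteins, Sdc1, the plasma cell marker CD138, had 932 and 888 in tumour, against 395 and 472 in the node (log2 ratio 1.07). These 3 genes differed little between the 2 tumour libraries. Igj, the joining chain of secreted IgM and IgA, had 36804 and 33194 in tumour, against 18415 and 23542 in the node (log2 ratio 0.74, adjusted p = 0.000589 in the authors' deposited table). Mzb1, a chaperone cofactor of antibody secretion, had 6076 and 5756 in tumour, against 2374 and 3421 in the node (log2 ratio 1.03, adjusted p = 2.39e-06 in the authors' deposited table). Derl3, which moves misfolded proteins out of the endoplasmic reticulum for degradation, had 855 and 953 in tumour, against 252 and 394 in the node (log2 ratio 1.48), the largest ratio of the list. Hsp90b1, the chaperone GRP94 of the endoplasmic reticulum, had 17690 and 20015 in tumour, against 9237 and 11918 in the node (log2 ratio 0.83). Creld2, a secreted protein induced by endoplasmic reticulum stress, had 2173 and 2249 in tumour, against 1150 and 1519 in the node (log2 ratio 0.73). The salivary sums given above differed between the tumour libraries by more than any of these genes did, and their part here was not tested. On a separate list of 19 heat shock and unfolded protein genes none was listed. That list does not hold Xbp1, Hsp90b1, Creld2 or Derl3. With 1.77% of all tested genes called, a list of this size may well be empty.

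The promoters of Derl3, Hsp90b1 and Creld2 are shown because they are the listed secretion genes whose start region holds the endoplasmic reticulum stress element, the binding site through which ATF6 and XBP1 are known to act. The element was searched on both strands as CCAAT, then 9 bases of any kind, then CCACG, in windows of 250 bases before to 50 after each gene start from RefSeq (GRCm38.p6). Each window is given 5′ to 3′ on the strand of its gene, with both parts of the element in capitals (CGTGG and ATTGG where it lies on the other strand).
Derl3: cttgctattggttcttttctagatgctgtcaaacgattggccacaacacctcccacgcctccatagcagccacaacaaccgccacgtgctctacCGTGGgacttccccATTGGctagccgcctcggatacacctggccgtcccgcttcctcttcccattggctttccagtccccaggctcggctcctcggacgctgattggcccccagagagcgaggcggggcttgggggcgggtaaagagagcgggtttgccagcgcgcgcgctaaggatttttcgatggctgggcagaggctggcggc
Hsp90b1: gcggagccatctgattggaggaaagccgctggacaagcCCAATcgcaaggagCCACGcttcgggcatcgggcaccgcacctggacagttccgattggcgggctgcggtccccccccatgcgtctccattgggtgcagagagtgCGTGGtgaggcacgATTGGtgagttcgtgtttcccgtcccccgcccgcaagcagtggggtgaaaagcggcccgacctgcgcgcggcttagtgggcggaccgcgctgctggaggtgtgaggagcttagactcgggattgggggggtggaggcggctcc
Creld2: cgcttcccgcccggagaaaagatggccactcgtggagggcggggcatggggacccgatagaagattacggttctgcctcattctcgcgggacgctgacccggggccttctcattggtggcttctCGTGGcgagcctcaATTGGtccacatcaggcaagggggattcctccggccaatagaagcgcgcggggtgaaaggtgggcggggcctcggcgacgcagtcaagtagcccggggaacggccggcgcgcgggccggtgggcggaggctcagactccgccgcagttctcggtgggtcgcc
These windows are at chr10:75893148-75893447 on the plus strand, chr10:86705395-86705694 on the minus strand and chr15:88819396-88819695 on the plus strand. Derl3 and Creld2 each hold 1 element and Hsp90b1 holds 2. The element was in 3 of 19 windows (15.8%) of the 14 listed secretion genes that matched the promoter table, and in 39 of all 32851 windows (0.119%). Over all genes higher in tumour it was in 3 of 140 windows (2.14%), from the same 3 genes, and over those lower in 0 of 230. The share among secretion genes that were not listed is not given, so these shares are a description only. The core TGACGTGG, whose last 5 bases are the reverse complement of the second part of the element, was in the windows of Txndc11 and Txndc5 and in 0.676% of all windows. The octamer ATTTGCAT, a motif of immunoglobulin promoters, was in 0 of the 19 windows and in 1.74% of all. Of the 418 genes, 296 matched the promoter table by symbol. A match says only that the letters are present.

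Ribosomal protein transcripts were higher in tumour where listed. Of 91 cytosolic ribosomal protein genes, 7 were listed and all 7 were higher, with log2 ratios from 0.83 to 1.33 and a median of 1.16. Rps28, of the small subunit, had 10029 and 11128 normalised reads in tumour A and B, against 4170 and 5306 in node A and B (log2 ratio 1.16, adjusted p = 4.17e-09 in the authors' deposited table). Rpl38, of the large subunit, had 8430 and 10208 in tumour, against 2544 and 4862 in the node (log2 ratio 1.33). Node library B was the higher of the node libraries for all 7 genes. Transcript length differed between the listed genes of either direction. The median exon length was 2774 bp among protein-coding genes higher in tumour (n = 126) and 4137 bp among those lower (n = 249), against 3498 bp for all 21951 annotated protein-coding genes. Without the ribosomal protein and salivary lists the median of the higher genes was 3288 bp (n = 102). The part of transcript length in these ratios was not tested. None of 83 mitochondrial ribosome genes and none of 44 proliferation genes was listed, beside 1.77% of all genes tested. Lists of these sizes may well be empty at that share, so their genes are not shown to be unchanged.

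Some transcripts of effector T cells and of inhibitory receptors were higher in tumour, and no gene of the T cell identity list was listed. Gzmk, the granzyme K protease of cytotoxic T cells, had 691 and 857 normalised reads in tumour A and B, against 65.99 and 156 in node A and B (log2 ratio 2.80, 3.55 without node library B; adjusted p = 4.66e-14 in the authors' deposited table). Eomes, a transcription factor of effector and memory CD8 T cells and natural killer cells, had 1032 and 945 in tumour, against 490 and 509 in the node (log2 ratio 0.98). For both genes the 2 tumour libraries lay closer to each other than to the node. Cxcr3, a chemokine receptor of type 1 effector cells, had 1226 and 1179 in tumour, against 641 and 564 in the node (log2 ratio 0.997). Cxcr6, a receptor of tissue-resident T cells, went the other way, with 310 and 316 in tumour against 729 and 863 in the node (log2 ratio -1.35). The cytotoxic and natural killer list therefore had 3 genes higher and 1 lower, of 34. Pdcd1, which encodes the inhibitory receptor PD-1, had 763 and 674 in tumour, against 366 and 263 in the node (log2 ratio 1.19). Tigit, another inhibitory receptor, had 654 and 584 in tumour, against 277 and 212 in the node (log2 ratio 1.34). They were the only 2 of 25 checkpoint and follicular helper genes listed.

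Other immune lists had few members. Of 48 interferon-stimulated genes, 3 were listed and all were higher, among them the interferon-inducible GTPase genes Igtp (log2 ratio 0.67) and Iigp1 (0.73) and the nuclease gene Isg20 (1.23). Of 27 B cell identity genes, 2 were higher and 2 were lower. Fcrl5, an inhibitory receptor of B cells, had 1010 and 894 normalised reads in tumour A and B, against 533 and 368 in node A and B (log2 ratio 1.08), and Cd72, a further inhibitory receptor, had a log2 ratio of 0.79. Cr2, the complement receptor CD21 of B cells and follicular dendritic cells, had 3155 and 3367 in tumour, against 6784 and 7793 in the node (log2 ratio -1.16, adjusted p = 3.98e-08 in the authors' deposited table). Cd55, a regulator that protects cells from complement, had a log2 ratio of -0.89. Of 20 germinal centre genes only Rgs13 (log2 ratio -1.59) and Basp1 (-0.94) were listed, and both were lower. Among 49 lymphoma oncogenes and suppressors, Tnfrsf14, the receptor HVEM, had a log2 ratio of 1.18, Cdkn1b, the cell cycle inhibitor p27, one of 0.62, and Mycn one of -3.26. Mycn had 9.52 and 6.91 normalised reads in tumour against 74.0 and 83.9 in the node.

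**Figure D3:**
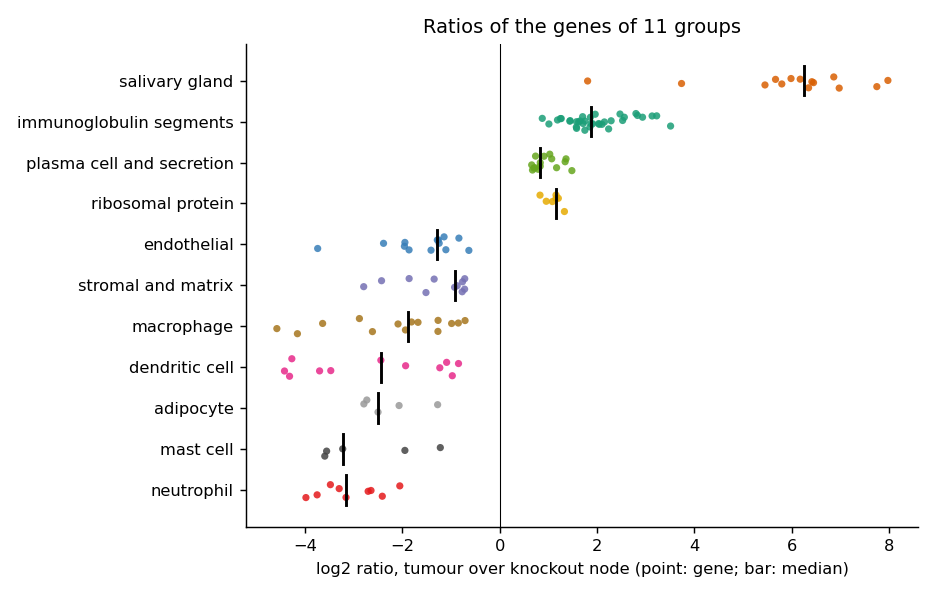
Log2 ratio of tumour over knockout node (horizontal) of the listed genes of 11 groups (rows), 1 point per gene with a finite ratio and a bar at the median. The 4 upper groups lie wholly above 0 and the 7 lower groups wholly below; no point lies at 0 because only called genes are listed.

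Genes of cells that build the node and sample its lymph were lower in tumour. For every fall in these whole-tissue samples, fewer cells of a type and less RNA per cell cannot be told apart. Likewise for the rises above, more cells of a type and more RNA per cell cannot be told apart. Of 74 macrophage and monocyte genes, 14 were listed and all 14 were lower in tumour, with a median log2 ratio of -1.87. Of 24 genes on a list of scavenger receptors and lipid and iron handling, 8 were listed, all lower, with a median of -2.01. The 2 lists overlap: Cd209b, Marco, Msr1, Mrc1, Slc40a1 and Stab1 are on both, so these are largely the same falls. Marco, a scavenger receptor of sinus and marginal zone macrophages, had 739 and 1009 normalised reads in tumour A and B, against 4874 and 7986 in node A and B (log2 ratio -2.88, adjusted p = 0.00306 in the authors' deposited table). Siglec1, the sialoadhesin CD169 of sinus macrophages, had 947 and 2599 in tumour, against 6138 and 6294 in the node (log2 ratio -1.81, -2.71 without tumour library B). Msr1, the class A scavenger receptor, had 199 and 195 in tumour, against 1009 and 1402 in the node (log2 ratio -2.61). Tumour library B thus kept more Siglec1 than library A, while Msr1 was even between them. Csf1r, the receptor for macrophage growth factor, had the smallest ratio of the list, with 3225 and 3742 in tumour against 5769 and 5624 in the node (log2 ratio -0.71). Slc40a1, the iron exporter ferroportin, had 136 and 79.9 in tumour, against 469 and 357 in the node (log2 ratio -1.93). The macrophage marker C1qa was not listed.

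A family of C-type lectin receptors fell together. Cd209b, Cd209d, Cd209e, Cd209f and Cd209g, mouse relatives of human DC-SIGN that bind sugars on pathogens, lie on chromosome 8 between 3847965 and 4137707. Cd209b, the receptor SIGN-R1 of marginal zone and medullary macrophages, had 917 and 345 normalised reads in tumour A and B, against 9239 and 20845 in node A and B. Its log2 ratio was -4.58 (adjusted p = 0.0297 in the authors' deposited table), or -5.44 without tumour library A and -3.87 without node library B. Both spreads were wide, and the lower node library still lay well above the higher tumour library. Cd209e had 4.76 and 0.987 in tumour, against 81.1 and 140 in the node (log2 ratio -5.27, -6.81 without tumour A and -4.54 without tumour B). Cd209f had 23.8 and 6.91 in tumour, against 158 and 224 in the node (log2 ratio -3.64, -4.79 without tumour A and -3.003 without tumour B). Cd209d had a log2 ratio of -3.70 (-4.85 without tumour A, -3.06 without tumour B) and Cd209g one of -4.15. These genes are related in sequence, and reads may have been shared among them.

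Dendritic cell genes fell by a median log2 ratio of -2.44, with 11 of 44 listed and all 11 lower. Ccl22, a chemokine of mature dendritic cells that draws regulatory T cells, had 144 and 62.2 normalised reads in tumour A and B, against 1387 and 2579 in node A and B (log2 ratio -4.27, -4.995 without tumour A; adjusted p = 0.00201 in the authors' deposited table). Fscn1, the actin bundler fascin of mature dendritic cells, had 1790 and 1100 in tumour, against 4880 and 6135 in the node (log2 ratio -1.93, adjusted p = 4.61e-07 in the authors' deposited table). Siglech, a receptor of plasmacytoid dendritic cells, had 209 and 97.7 in tumour, against 1124 and 2274 in the node (log2 ratio -3.47, -4.12 without tumour A and -2.87 without node B). In all 11 genes node library B was above node library A, and in 10 of them tumour library A was above tumour library B. Clec10a, a lectin of conventional dendritic cells and macrophages, had 184 and 151 in tumour, against 712 and 1103 in the node (log2 ratio -2.44). Itgae, the integrin CD103 of cross-presenting dendritic cells and of resident T cells, had 304 and 317 in tumour, against 651 and 803 in the node (log2 ratio -1.23). Apol7c, an apolipoprotein L family gene, was among the 15 largest falls but uneven in tumour, with 122 and 6.91 against 757 and 1593 in the node (log2 ratio -4.19, -7.41 without tumour A, -3.27 without tumour B and -3.56 without node B). The cross-presenting dendritic cell marker Xcr1 was not listed, and none of 11 class II antigen presentation genes was.

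Signals that place lymphocytes were lower as well. Of 60 chemokines and their receptors, 7 were lower and 4 were higher. Cxcl13, the chemokine with which follicular stroma attracts B cells (ENSMUSG00000023078, chromosome 5, 95956951 to 95961068), had 1529 and 1230 normalised reads in tumour A and B, against 6626 and 8193 in node A and B. It was 5.37-fold higher in the knockout node than in tumour (log2 ratio -2.43, adjusted p = 1.81e-14 in the authors' deposited table), and the libraries of each group lay close together. Ackr4, an atypical receptor of sinus endothelium that removes CCL19 and CCL21, had 52.3 and 66.1 in tumour, against 240 and 379 in the node (log2 ratio -2.38). Cxcl16, the ligand of Cxcr6, had 388 and 382 in tumour, against 1046 and 1364 in the node (log2 ratio -1.65), so ligand and receptor were both lower. Cxcl14, an epithelial and stromal chemokine, was higher, with 225 and 147 in tumour against 17.8 and 52.4 in the node (log2 ratio 2.40, 3.38 without node B). Of 83 interleukins and their receptors 3 were listed, all lower. Il22ra2, the soluble decoy receptor for interleukin 22, had 232 and 319 in tumour, against 2135 and 3319 in the node (log2 ratio -3.31), and Il13ra2, the decoy receptor for interleukin 13, had 30.5 and 49.4 in tumour, against 186 and 185 in the node (log2 ratio -2.22).

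Stromal and vessel genes were lower as well, and tumour library A was above tumour library B in 10 of the 11 stromal and 12 of the 13 endothelial genes listed. Of 78 stromal and matrix genes, 11 were listed, all lower, with a median log2 ratio of -0.92. Postn, the matrix protein periostin, had 302 and 279 normalised reads in tumour A and B, against 1763 and 2260 in node A and B (log2 ratio -2.79, adjusted p = 4.48e-13 in the authors' deposited table). Tnfsf11, the cytokine RANKL that organises node stroma, had 169 and 124 in tumour, against 478 and 587 in the node (log2 ratio -1.86). Enpp2, autotaxin, which makes the lipid that speeds lymphocyte entry, had 4791 and 3339 in tumour, against 10692 and 12504 in the node (log2 ratio -1.51). Col6a5, a collagen VI chain, is on none of the lists and had the smallest adjusted p among the falls, 1.81e-18 in the authors' deposited table, with 52.3 and 93.8 in tumour against 703 and 771 in the node (log2 ratio -3.33). The matrix gene Col1a1 and the pericyte receptor gene Pdgfrb were not listed. Of 58 endothelial genes, 13 were listed, all lower, with a median of -1.28. Prox1, the master regulator of lymphatic endothelium, had 258 and 249 in tumour, against 708 and 637 in the node (log2 ratio -1.41). Kdr, the main receptor for vascular endothelial growth factor, had 876 and 802 in tumour, against 1783 and 2289 in the node (log2 ratio -1.28). Blood and lymphatic vessel genes were thus both represented. Cldn5, a tight junction protein, had 440 and 306 in tumour, against 1232 and 1659 in the node (log2 ratio -1.96). The general endothelial genes Cdh5 and Pecam1 had smaller ratios of -0.84 and -0.63. Chst4, the sulfotransferase of high endothelial venules, was uneven in tumour with 111 and 30.6, against 223 and 292 in the node (log2 ratio -1.86, -3.07 without tumour A and -1.21 without tumour B).

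Neutrophil, mast cell and adipocyte genes also fell, and their levels differed widely between the 2 tumour libraries. Of 43 neutrophil genes, 9 were listed, all lower, with a median log2 ratio of -3.15, which was -5.24 without tumour library A and -2.23 without tumour library B. Their summed normalised reads were 1359 and 521 in tumour A and B, against 4385 and 5592 in node A and B. S100a9, a calcium-binding alarmin of neutrophils, had 125 and 6.91 in tumour, against 578 and 594 in the node (log2 ratio -3.15, -6.41 without tumour A and -2.23 without tumour B; adjusted p = 5.90e-14 in the authors' deposited table). Ngp, neutrophilic granule protein, had 77.1 and 0.987 in tumour, against 273 and 214 in the node (log2 ratio -2.64, -7.95 without tumour A and -1.66 without tumour B). In all 9 genes tumour library A was the higher tumour library. The knockout node was itself above wild-type node for most of this list. In knockout over wild-type node, where 105 genes were listed, 7 of the 9 were listed and all 7 were higher. In tumour over wild-type node, where 1630 genes were listed, 2 of the 9 were listed and both were lower. Mmp9, the gelatinase of neutrophil granules and of macrophages, was less uneven, with 37.1 and 16.8 in tumour against 290 and 435 in the node (log2 ratio -3.75, -4.43 without tumour A).

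Of 19 mast cell and basophil genes 5 were listed, all lower, with a median log2 ratio of -3.22 that was -7.13 without tumour library A and -2.27 without tumour library B. Mcpt4, a chymase of connective tissue mast cells, had 97.1 and 0 normalised reads in tumour A and B, against 417 and 722 in node A and B (log2 ratio -3.55, -2.55 without tumour B and no ratio without tumour A). Cma1, a further chymase, had 39.0 and 0 in tumour, against 252 and 218 in the node (log2 ratio -3.59, -2.59 without tumour B). Tpsb2, a tryptase, had 57.1 and 1.97 in tumour, against 242 and 310 in the node (log2 ratio -3.22, -7.13 without tumour A and -2.27 without tumour B). Tumour library B thus held at most 1.97 normalised reads of any of these proteases. Kit and Gata2, also on this list, were less uneven in tumour and fell less. Kit had 247 and 225 in tumour A and B (log2 ratio -1.22), and Gata2 had 60.0 and 39.5 (log2 ratio -1.95). The mast cell marker Cpa3 was not listed. Of 32 adipocyte genes 5 were listed, all lower, with a median of -2.50 that was -5.17 without tumour A and -1.59 without tumour B. Adipoq, the fat cell hormone adiponectin, had 77.1 and 4.94 in tumour, against 234 and 230 in the node (log2 ratio -2.50, -5.55 without tumour A and -1.59 without tumour B). Car3, a carbonic anhydrase abundant in fat, had 290 and 26.6 in tumour, against 933 and 1166 in the node (log2 ratio -2.73, -5.30 without tumour A and -1.85 without tumour B). Cfd, the complement factor D or adipsin, was less uneven with 19.99 and 10.9 in tumour against 107 and 106 in the node (log2 ratio -2.79). Tumour library A thus held more of these genes and tumour library B more of the salivary genes. No gene of the skeletal muscle list was listed.

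**Figure D4:**
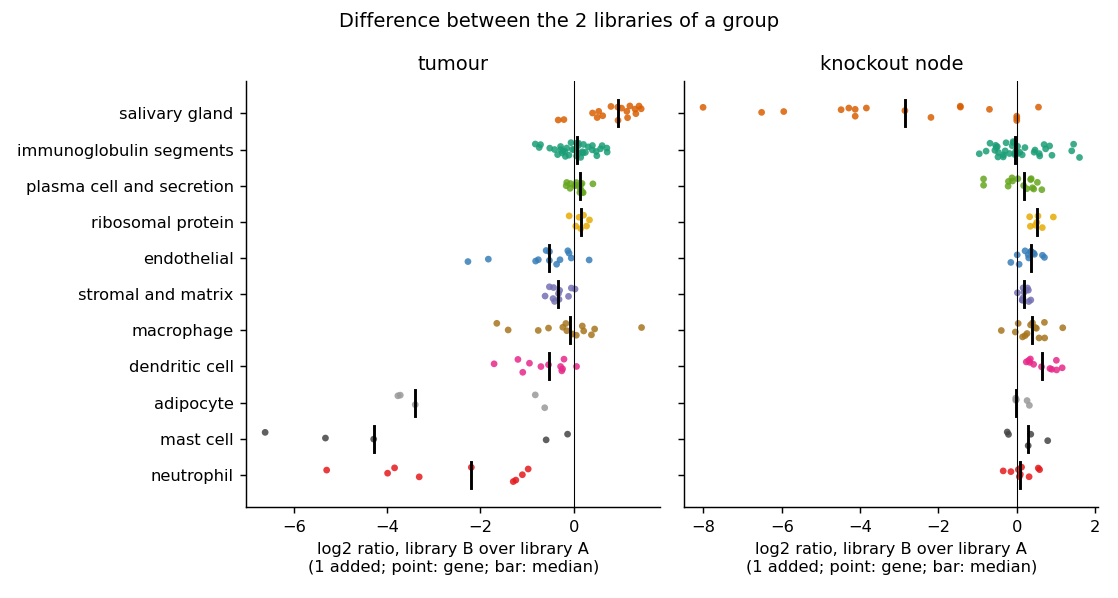
Difference between the 2 libraries of a group, as log2 of library B over library A with 1 added to both, for the tumour (left panel) and the knockout node (right panel), 1 point per listed gene and a bar at the median of each of 11 groups. In tumour the medians of the adipocyte, mast cell and neutrophil genes lie far below 0, though some of their genes lie closer to it. The salivary genes lie mostly above 0 in tumour, and in the node it is the salivary genes that spread.

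This unevenness was not spread over all genes. Among the 253 genes that were lower, tumour library A was over 2-fold above tumour library B in 34 and the reverse held in 2. Among the 165 that were higher, tumour library B was over 2-fold above library A in 18 and the reverse held in 0. In the node, library A was over 2-fold above library B in 20 of the higher genes and the reverse held in 8, while among the lower genes library B was over 2-fold above library A in 8 and the reverse held in 0. A ratio could be taken without each of the 4 libraries in turn for 385 genes, of which 53 moved by over 1.5-fold and 332 stayed within that bound. A further 18 genes had no ratio without 1 of the libraries, and 15 had a group at 0 reads from the start.

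The largest falls outside these lists included secreted proteins, a patterning gene and enzymes of pigment cells. Bpifb3 and Bpifb2, of the same family and the same stretch of chromosome 2 as Bpifa2, went the opposite way to it. Bpifb3 had 6.66 and 3.95 normalised reads in tumour A and B, against 215 and 514 in node A and B (log2 ratio -6.10, -5.34 without node B). Bpifb2 had 10.5 and 2.96 in tumour, against 213 and 444 in the node (log2 ratio -5.61, -6.79 without tumour A, -4.97 without tumour B and -4.99 without node B). Bpifb3 starts at 153918230 and Bpifb2 at 153875045, and Bpifa2 at 154008265, so members of 1 gene cluster had ratios of opposite sign. Wif1, a secreted inhibitor of Wnt signals, had 3.81 and 2.96 in tumour, against 63.3 and 99.03 in the node (log2 ratio -4.58). Hoxc8, a homeobox gene of positional identity in mesenchyme, had 4.76 and 0 in tumour, against 71.3 and 51.3 in the node (log2 ratio -4.69, -3.69 without tumour B). Dct and Tyrp1, both enzymes of melanin synthesis, named after their values were seen, had 0 reads in both tumour libraries. Taking 3 reads over the group as the floor, Dct, with 61.5 and 158 in node A and B, was at least 75.6-fold lower in tumour, or at least 42.3-fold without node library B. Tyrp1, with 49.9 and 93.2 in the node, was at least 49.2-fold lower, or at least 34.3-fold without node library B. Sepp1, selenoprotein P, and Clu, clusterin, were among the 5 listed genes with the highest node means. Sepp1 had 8117 and 5958 in tumour, against 22426 and 27333 in the node (log2 ratio -1.82, adjusted p = 1.08e-09 in the authors' deposited table), and Clu had a log2 ratio of -0.87. Of 35 complement and coagulation genes 5 were listed, all lower, among them F13a1, the clot-stabilising factor XIII A chain, with 155 and 80.9 in tumour against 411 and 466 in the node (log2 ratio -1.89).

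How the same genes stood against wild-type lymph node can be read from a further deposited table that shares both tumour libraries with this comparison, so the ratios below are not independent and each table was normalised separately. Against wild-type node the log2 ratio of Igkc was 2.20, of Ighg2b 3.39, of Ighg3 4.21 and of Igj 2.15, set beside 1.01, 1.71, 1.45 and 0.74 against knockout node. The wild-type node libraries had 45560 and 40866 normalised reads of Igkc, on the scale of that table. For Gzmk, which had 11 and 14 recovered reads in the wild-type node, it was 5.82, set beside 2.80. Each of these genes was further from wild-type than from knockout node. For Bpifa2 the ratio against wild-type node was 4.53, set beside 6.98 against knockout node, and the wild-type node libraries had 5513 and 17681 reads of it. For Cfd it was -7.07, set beside -2.79, with 2223 and 1601 reads in the wild-type node. For Cxcl13 it was -1.72, set beside -2.43, for Marco -3.02 beside -2.88 and for Postn -2.99 beside -2.79. Not all of the falls were listed against wild-type node, where 1630 genes were listed. Over all 418 genes, rises and falls together, 328 were listed there. Of the 14 macrophage genes 9 were, and of the 13 endothelial genes 6. Of the 11 stromal genes 9 were, and of the 11 dendritic cell genes 11. All of those listed were lower in tumour there too. S100a9 was not listed in tumour against wild-type node. In the deposited table of knockout over wild-type node, which shares the knockout node libraries, its log2 ratio was 3.92, with 548 and 562 normalised reads in the knockout node against 25.9 and 47.2 in the wild-type node. Mmp9, which is listed against wild-type node, had a log2 ratio of -2.74 there, set beside -3.75 against knockout node.

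**Figure D5:**
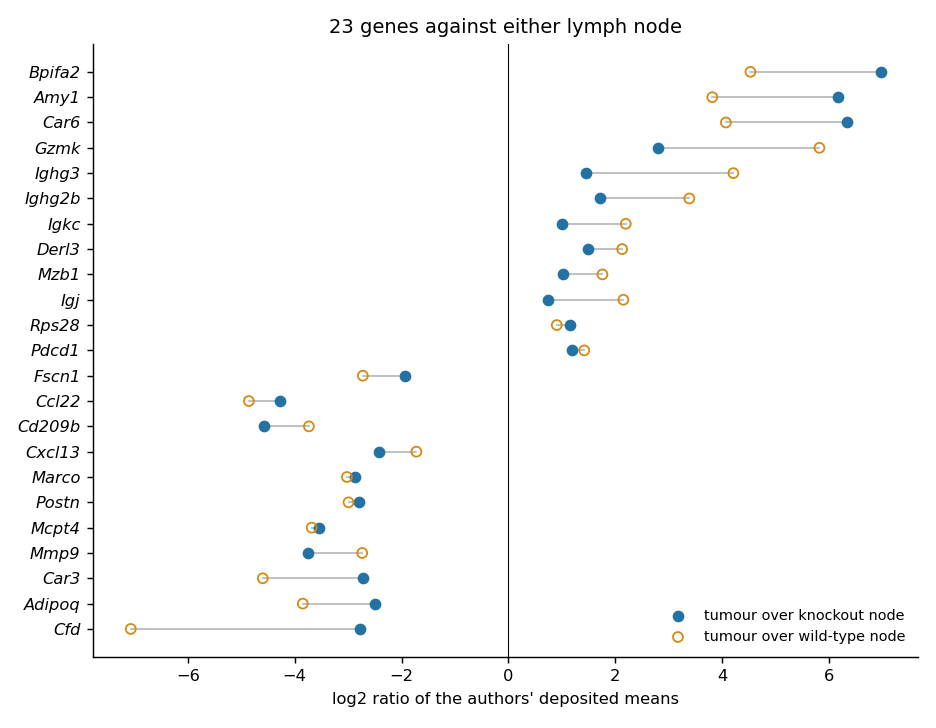
Log2 ratio of tumour over knockout node (filled blue) and of tumour over wild-type node (open orange) for 23 genes (rows), from the authors' deposited means, with a line joining the 2 ratios of a gene. Both ratios use the same tumour libraries; immunoglobulin and Gzmk ratios lie further right against wild-type node, and salivary ratios lie further right against knockout node.

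Splenic B and T cells of knockout and wild-type mice share no library with tumour or node. In knockout over wild-type B cells, where 1.24% of the genes tested were called, 21 of the 418 genes were listed, which is 5.02% of them and 7.05% of the 298 genes of that table. In knockout over wild-type T cells, where 2.35% were called (1.67% higher and 0.676% lower), 87 were listed, which is 20.8% of the 418 and 14.8% of the 587. Of these 87, 52 were higher and 3 lower in both comparisons, 5 were higher in tumour and lower in knockout T cells, and 27 were lower in tumour and higher in knockout T cells. Pdcd1 had a log2 ratio of 1.15 and Tigit of 1.44 in T cells, beside 1.19 and 1.34 in tumour. Gzmk had log2 ratios of 2.93 in T cells and 2.09 in B cells, beside 2.80 in tumour. Ribosomal protein genes ran the other way, with Rps28 at -0.58 and Rps29 at -0.70 in T cells, beside 1.16 and 1.21 in tumour. S100a9, at 2.51 in T cells and -3.15 in tumour, and Postn, at 3.47 and -2.79, also differed in sign. Immunoglobulin variable and constant segments made up 28 of the 87, and all 28 were among the 52 that were higher in both comparisons. Of the 15 listed plasma cell and antibody secretion genes, 13 were among those 52 as well.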

How the data were processed

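Polyadenylated RNA was read on the Illumina HiSeq platform, per the labels' protocols. The submitters' processing notes name CASAVA 1.8, DESeq without a version, and the build GRCm38 (mm10). Which aligner, counter, strand setting and annotation were used is not given in the sources used here.

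Every table deposited by the authors gives, per gene, 1 signal per group, a mean normalised read count over 2 libraries, with no SD or n. The log2 ratio was recomputed from the deposited means and matched the authors' log2 value to within 5e-05. The p-value and adjusted p-value are the ones in the authors' deposited table, and the submitters' processing notes name DESeq as the tool. The planned tests allowed for counts per library; the tables hold only called genes, so no test was added. The number of genes tested was worked out from how the deposited p-values relate to their Benjamini-Hochberg adjusted values. Whole reads of each library were recovered from the digits of the means with Python 3.11.15, numpy 2.4.6 and pandas 2.3.3. A gene listed in 2 tables that share a group had the same reads for it in both in 430 of 430 comparisons, and the step was tested on simulated data. Positions came from GENCODE M21, which held 416 of the 418 genes.

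A fold against a group at 0 reads is at least the value against a floor of 3 reads per group, and a group with 1 to 3 reads gives a ratio with an exact 95% interval. Alternatives were an adjusted p under 0.01, at least 2-fold, no receptor segments or predicted genes, a mean of at least 50, 1 added to both means, 1 library left out and the wild-type node as the reference. Named genes are Becn2 and Becn1, the 15 genes that rose most and the 15 that fell most among those with a finite ratio whose larger group mean was 50 or more (no receptor segments, predicted or unnamed genes), the 5 of smallest adjusted p per direction, for each list with 2 or more members listed the 6 of smallest adjusted p, the 5 of highest mean per group, and cell type markers. Derl3, Hsp90b1 and Creld2 were shown for their promoters, and Prdm1, Sdc1, Chst4, Rps29, Dct and Tyrp1 were picked after their values were seen, as was which genes of the rule to print. Some genes that the rule or the markers give are not reported here. The members and the 50 gene lists were chosen with earlier results of these data known.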

Additional observations from a re-analysis of the deposited data

How the results depend on the processing

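An adjusted p under 0.01 left 273 genes, 159 of them lower. It moved the median log2 ratio to -1.51 for stromal genes, 1.23 for interferon-stimulated genes, 1.18 for lymphoma genes, -1.65 for chemokines and -1.45 for zinc finger genes, and turned that of the B cell identity list to 0.79 from 4 genes that went both ways; fewer genes were counted there. With 1 library left out, medians ran from -5.24 to -2.23 for neutrophil genes, -1.26 to -0.73 for stromal genes, -5.17 to -1.59 for adipocyte genes, 5.35 to 10.02 for salivary genes, -7.13 to -2.27 for mast cell genes and -0.153 to 0.0631 for B cell identity genes, the last changing sign without node library B. The cause was not tested. Of 168 list medians under an alternative, 156 moved by less than their spread, 10 by more and 2 changed sign. Of 789 values of the 138 named genes, 716 moved by less than the spread between libraries, 73 by more and 0 changed sign. No paired analysis was possible because the deposited columns are group means and the recovered libraries carry no replicate number. Depth is known only as size factors, so genes not listed are not shown to be unchanged. With 2 libraries a group, 1 library decides many ratios.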

Other observations

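Some listed genes that were not described above are given here as single genes, picked after their values were seen. Hnrnpa1, a splicing regulator, had 15535 and 16984 normalised reads in tumour A and B, against 9687 and 11176 in node A and B (log2 ratio 0.64). Taf15 had a log2 ratio of 0.70, Snrnp70, of the U1 particle, of 0.61, and Snrpg, a core protein of spliceosomal particles, of 1.09. Ly6a, the surface protein Sca-1, had 9882 and 13006 in tumour, against 4673 and 4791 in the node (log2 ratio 1.27). Btla, an inhibitory receptor and binding partner of the receptor encoded by Tnfrsf14, had 10008 and 10049 in tumour, against 6422 and 5468 in the node (log2 ratio 0.75).

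Of the Cd300 family, whose receptors regulate myeloid cells, Cd300c, also on the dendritic cell list, had a log2 ratio of -4.42 (-3.82 without node library B), Cd300ld of -2.28, Cd300lh of -2.93 and Cd300a of -1.30. Id2, an inhibitor of basic helix-loop-helix factors needed by dendritic and innate lymphoid cells, had 806 and 681 normalised reads in tumour A and B, against 1867 and 2303 in node A and B (log2 ratio -1.49). The transcription factor genes Tbx15, Meox2, Hoxd8 and Prrx1 had log2 ratios of -2.84, -1.44, -1.37 and -1.19.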
